A study of Mus musculus with 6 samples.

Results

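Interferon receptors, the STAT and IRF factors downstream of them and their feedback regulator Usp18 were followed in sorted mouse thyroid tumor cells. The rows of the expression table with the symbols Ifnar1, Ifnar2, Ifngr1, Ifngr2, Stat2, Irf1, Irf7, Irf9 and Usp18 were taken, and all 9 were found among 35027 genes. All 9 also passed the minimum mean of 1 TPM (a gene's share of the reads, scaled by length) and were tested. Usp18 did so through its YAP libraries alone, with a mean of 1.93 TPM in YAP and 0.323 in BrafYAP. The deposited TPM of each library added up to 181218, so the values are relative and are not shares of the usual total. In BrafYAP cells, the values of Stat2, Irf1, Irf7, Irf9 and Usp18 lay below those of YAP cells in every library, whereas Ifngr2 and Ifnar2 had higher means. None of these differences passed the threshold after adjustment over all genes tested, and Irf7 and Usp18 came closest to it.

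RNA-seq was performed on about 20000 Kate-positive cells per library, with 3 libraries of each genotype. In both genotypes, a Cre recombinase restricted to thyroid cells switched on the rtTA activator and the red fluorescent protein Kate, and dox chow given from 4 weeks of age induced YAPS127A, a mutant YAP that stays in the nucleus. BrafYAP mice also expressed BrafV600E, a constitutively active kinase of the MAPK pathway, from the endogenous gene. The labels give 3 pooled tumors for every YAP library (replicates 1, 2 and 3) and a single tumor for every BrafYAP library (replicates 1, 2 and 6), so pooling and genotype cannot be told apart. The text of the study differs here, with a single tumor for each replicate. On the start of dox its methods give 4 weeks of age, as the labels do, whereas its results give a later start. The labels were followed. Age at collection was not given in the labels, and cells without YAPS127A were not analysed here. Since the cells were sequenced in bulk, fewer cells of a type and less RNA per cell cannot be told apart either.

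Type I interferons (the alpha and beta interferons) bind a receptor made of the Ifnar1 and Ifnar2 chains, and interferon-gamma binds one made of Ifngr1 and Ifngr2. Janus kinases on the receptor tails then phosphorylate STAT proteins. Stat2 and Irf9 are subunits of the complex ISGF3, which binds interferon-stimulated response elements, and interferon-gamma acts through gamma-activated sites. Irf1 and Irf7 are themselves interferon-induced transcription factors that carry the response further, and Usp18 shuts the type I receptor down.

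Library depth, estimated from the deposited values, was 26.2 to 36.9 M reads. The sorted cells carried epithelial markers (9 genes, summed level 7605 to 23870 TPM by exonic length in YAP and 11420 to 25430 in BrafYAP) and the thyroid factor Pax8 (164.1 to 219.5 against 75.9 to 183.5). Krt18, the highest of the epithelial list, overlapped, whereas Epcam did not (14.4 to 50.8 in YAP and 65.0 to 283.2 in BrafYAP). Of the 9 epithelial genes, 2 were higher and 0 lower in BrafYAP without overlap, against 11.8% and 16.4% of all genes tested. BrafYAP replicate 6 stood apart in thyroid differentiation genes. Its level of Slc5a5, which encodes the sodium-iodide symporter, was 17.2 TPM by exonic length, against 0.337 and 0.0734 in the other BrafYAP libraries and 0.383 to 0.521 in YAP. Markers of myeloid and dendritic cells were also read in every library. Their summed level (13 genes) was 14810 to 48890 in YAP and 4249 to 14850 in BrafYAP, most of it from Lyz2, a lysozyme of macrophages and granulocytes. Without Lyz2 it was 3777 to 10800 in YAP and 1241 to 2835 in BrafYAP.

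The promoters of the members were read to place them against the factors they encode. RefSeq (GRCm38.p6) gave a promoter for 8 of the 9 members, and Usp18 had none in that table. Windows from 250 bases before to 50 bases after the start were searched on both strands for GAAANNGAA, the core repeat of an interferon-stimulated response element, and for TTCNNNGAA, the core of a gamma-activated site. The motifs can share a GAA, but no promoter of a member held both, and a match describes the letters only. Of the 8 members, Stat2 held the first motif and Irf1, Ifnar2 and Ifnar1 held the second. Among all 27025 genes of the promoter table, 9.76% held the first and 9.55% the second in a promoter (8.56% and 8.3% of its 32851 promoters). The match of Ifnar1 (TTCACGGAA) spanned the start itself, from -5 to 4. The 3 matches that lay wholly before the start are in capitals in the 250 bases before each gene, shown because Stat2 and Irf1 were lower in every BrafYAP library while Ifnar2, with the same kind of motif as Irf1, was not.
Stat2, chr10:128270248-128270497, plus strand: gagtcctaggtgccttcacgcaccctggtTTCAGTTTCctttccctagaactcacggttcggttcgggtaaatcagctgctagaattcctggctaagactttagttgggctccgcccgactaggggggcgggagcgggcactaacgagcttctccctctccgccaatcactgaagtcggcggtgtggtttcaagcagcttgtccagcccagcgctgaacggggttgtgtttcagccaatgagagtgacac
Irf1, chr11:53769764-53770013, plus strand: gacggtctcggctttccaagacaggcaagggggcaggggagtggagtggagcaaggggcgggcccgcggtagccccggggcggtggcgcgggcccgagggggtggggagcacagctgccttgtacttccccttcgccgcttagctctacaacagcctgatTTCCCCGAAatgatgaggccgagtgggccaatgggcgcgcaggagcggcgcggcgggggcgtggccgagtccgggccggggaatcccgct
Ifnar2, chr16:91372533-91372782, plus strand: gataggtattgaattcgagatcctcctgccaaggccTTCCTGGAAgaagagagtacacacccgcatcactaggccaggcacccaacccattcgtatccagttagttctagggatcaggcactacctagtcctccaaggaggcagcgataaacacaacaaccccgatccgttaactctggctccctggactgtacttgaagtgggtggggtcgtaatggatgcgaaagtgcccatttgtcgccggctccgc
The match of Stat2 read TTCAGTTTC on the plus strand, so the motif lay on the minus strand, from -221 to -213. Irf1 read TTCCCCGAA from -90 to -82, and Ifnar2 read TTCCTGGAA from -214 to -206. Neither motif was found in the windows of Ifngr1, Ifngr2, Irf7 and Irf9.

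Type I receptor chains were compared first. Ifnar1 (chr16:91485238-91507441), which joins the receptor after the ligand has bound, had values of 2.68, 7.79 and 4.65 TPM in YAP and 4.92, 4.78 and 2.49 in BrafYAP. The groups overlapped, with YAP replicate 2 the highest. The log2 fold change, BrafYAP against YAP on log2(TPM + 1), was -0.21 (SE 0.38, limma adjusted p = 0.787), and its 95% interval ran from -1.11 to 0.70. It was 0.11 without YAP replicate 2 and 0.04 without BrafYAP replicate 6, so its sign rested on single libraries.

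Ifnar2 (chr16:91372783-91405589), the chain that holds the ligand with high affinity, had 0.276, 2.25 and 0.622 TPM in YAP. In BrafYAP it had 2, 1.99 and 1.58 TPM. The BrafYAP libraries lay close together above YAP replicates 1 and 3, and YAP replicate 2 lay above them all. The log2 fold change was 0.59 (SE 0.35, limma adjusted p = 0.383), and on the scale of reads not divided by length it was 1.34 (limma adjusted p = 0.327).

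The chains of the interferon-gamma receptor pointed opposite ways. Ifngr1 (chr10:19591949-19610229), the ligand-binding chain, had 8.43, 14.9 and 9.20 TPM in YAP and 8.87, 7.23 and 3.62 in BrafYAP. Only BrafYAP replicate 1 reached into the YAP range. Its log2 fold change was -0.67 (SE 0.37, limma adjusted p = 0.352).

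Ifngr2 (chr16:91547072-91565623), the signaling chain that completes the receptor, had 0.686, 3.06 and 1.28 TPM in YAP. In BrafYAP it had 2.96, 4.51 and 4.16 TPM. Here 1 YAP library, replicate 2, lay just above the lowest BrafYAP library and the groups otherwise separated. Its log2 fold change was 0.95 (SE 0.35, unadjusted p = 0.0294, limma adjusted p = 0.196). Without YAP replicate 2 it was 1.30 and the adjusted p was 0.0459 by limma, and without one of the others the adjusted p was 0.285 to 0.431. Of all genes tested, 10.7% had an unadjusted p under 0.05 with the BrafYAP libraries higher, and Ifngr2 was the 1 member among them.

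Ifnar2, Ifnar1 and Ifngr2 are neighbours in a 193 kb stretch of chromosome 16 (chr16:91372783-91565623, plus strand). Between them lies Il10rb, a chain shared by the interleukin-10 and lambda interferon receptors. Il10rb, singled out for its place after its values were seen, had 3.09, 7.85 and 3.98 TPM in YAP and 7.598, 6.61 and 10.53 in BrafYAP. Its log2 fold change of 0.69 (limma adjusted p = 0.317) was positive like those of Ifnar2 and Ifngr2 and, on scaled reads, smaller than both (0.82 against 1.34 and 1.45), whereas Ifnar1, in the middle of the same stretch, had the value near 0 given above.

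The balance of the chains was then calculated within each library, where any scaling of the library cancels. This ratio was chosen after the values had been seen. Per exonic length, Ifnar2 stood at 0.271, 0.760 and 0.353 of Ifnar1 in YAP and at 1.07, 1.101 and 1.67 in BrafYAP. By this measure Ifnar2 was the scarcer transcript in all 3 YAP libraries and the more abundant one in all 3 BrafYAP libraries. Which chain stands higher depends on the lengths used (5940 exonic bases for Ifnar1 and 3329 for Ifnar2). By estimated reads, before division by length, Ifnar1 was above Ifnar2 in every library. The geometric means differed 3.00-fold, or by 1.59 on the log2 scale (SD 0.77 in YAP and 0.36 in BrafYAP). For the interferon-gamma receptor, Ifngr2 stood at 0.0624, 0.158 and 0.107 of Ifngr1 in YAP and at 0.256, 0.478 and 0.881 in BrafYAP. Per exonic length the signaling chain stayed the scarcer one in every library. By estimated reads it was not in BrafYAP replicate 6 (2620 for Ifngr2 and 2248 for Ifngr1). The geometric means of the ratio differed 4.68-fold (2.23 on the log2 scale, SD 0.67 and 0.89). Both ratios separated the genotypes completely, with an exact two-sided permutation p = 0.1, the smallest that 3 libraries against 3 allow.

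**Figure D1:**
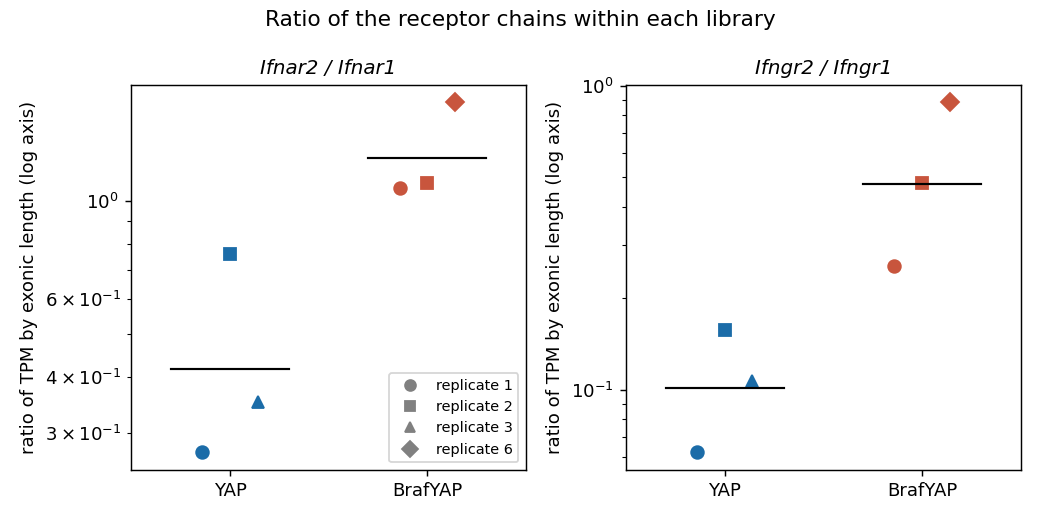
Ratio of the level per exonic length of the receptor chains (log axes), Ifnar2 to Ifnar1 on the left and Ifngr2 to Ifngr1 on the right. Each point is 1 library, its shape gives the replicate number and the lines are geometric means of 3 libraries, and in both panels all BrafYAP points lie above all YAP points (0.271 to 0.760 against 1.07 to 1.67, and 0.0624 to 0.158 against 0.256 to 0.881).

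STAT and IRF factors and Usp18 were lower in BrafYAP libraries, with no overlap for any of the 5 genes. Groups without overlap and lower in BrafYAP were found for 16.4% of all genes tested, and higher in BrafYAP for 11.8%, among which no member was found. The same 5 members had an unadjusted p under 0.05, which 9.17% of all genes tested had in that direction. The median log2 fold change was -1.15 over these 5 genes, 0.19 over the 4 receptor chains and -0.88 over all 9 members, against -0.06 over all genes tested. These counts include Usp18, which reached the minimum through its YAP libraries alone, and the median of the 5 is its own value. On scaled reads, which are not divided by length, Usp18 had means of 1456 in YAP and 243.4 in BrafYAP. There the medians were -1.35, 0.55 and -1.15, against -0.12 over all genes. After Benjamini-Hochberg adjustment, 18 of 7319 genes passed the limma threshold (0.246%), and 0 of the 9 members were among them, with 6 of the 9 at an unadjusted p under 0.05.

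Irf7 (chr7:141262706-141266481, minus strand), the factor that amplifies type I interferon production, showed the widest difference of the members. It had 52.5, 59.3 and 35.3 TPM in YAP and 6.50, 3.06 and 9.93 in BrafYAP. YAP and BrafYAP libraries were thus far apart. The means, 49.0 ± 12.3 and 6.50 ± 3.44 TPM (SD, n = 3 each), differed 7.55-fold. The log2 fold change was -2.82 (SE 0.41, 95% interval -3.80 to -1.84, limma adjusted p = 0.0511). The adjusted p was 0.0375 without YAP replicate 2 and 0.0497 without BrafYAP replicate 6, and up to 0.218 without one of the others (limma).

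Usp18 (chr6:121245906-121270917), the protease that removes Isg15 from proteins and blocks the type I receptor at Ifnar2, had 2.09, 2.11 and 1.59 TPM in YAP. In BrafYAP it had 0.353, 0.186 and 0.430 TPM. The lowest YAP library was well above the highest BrafYAP library, and the means (1.93 ± 0.295 and 0.323 ± 0.125 TPM, SD, n = 3 each) differed 5.98-fold. On log2(TPM + 1) the log2 fold change was -1.15 (SE 0.17, limma adjusted p = 0.0511). That scale understates the difference of a gene with so low a TPM. Usp18 spans 25012 bases but has 2790 exonic bases, and the deposited TPM were divided by the span. On scaled reads, which undo that division, the log2 fold change was -2.65 (limma adjusted p = 0.0625), and with the exonic length in its place it was -2.44 (SE 0.34, limma adjusted p = 0.045).

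Irf1 (chr11:53770014-53778374), an early factor of the interferon-gamma response, had 20.1, 37.2 and 22.6 TPM in YAP and 11.1, 10.7 and 12.97 in BrafYAP. The BrafYAP libraries were alike, whereas YAP replicate 2 stood above the other YAP libraries. With means 2.29-fold apart, the log2 fold change was -1.09 (SE 0.30, unadjusted p = 0.00785, limma adjusted p = 0.121).

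Stat2 (chr10:128270559-128292849) and Irf9 (chr14:55603571-55610030) encode subunits of ISGF3. Stat2 had 1.76, 4.50 and 2.97 TPM in YAP and 1.32, 0.984 and 1.07 in BrafYAP. Its YAP libraries were spread widely, the lowest of them little above the BrafYAP libraries, and the log2 fold change was -0.88 (SE 0.28, unadjusted p = 0.0156, limma adjusted p = 0.149). Irf9 had 25.4, 21.5 and 18.4 TPM in YAP and 8.61, 6.16 and 13.9 in BrafYAP. BrafYAP replicate 6 was the closest to the YAP range. Irf9 means were 2.28-fold apart, with a log2 fold change of -1.17 (SE 0.33, unadjusted p = 0.00898, limma adjusted p = 0.127).

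Irf7 overlaps Phrf1 and Irf9 overlaps Rnf31 in the annotation, and the strand of counting was not stated, so reads could be shared within these pairs. Phrf1 had a log2 fold change of -0.01 (limma adjusted p = 0.986) and Rnf31 one of 0.27 (limma adjusted p = 0.745), beside -2.82 for Irf7 and -1.17 for Irf9.

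**Figure D2:**
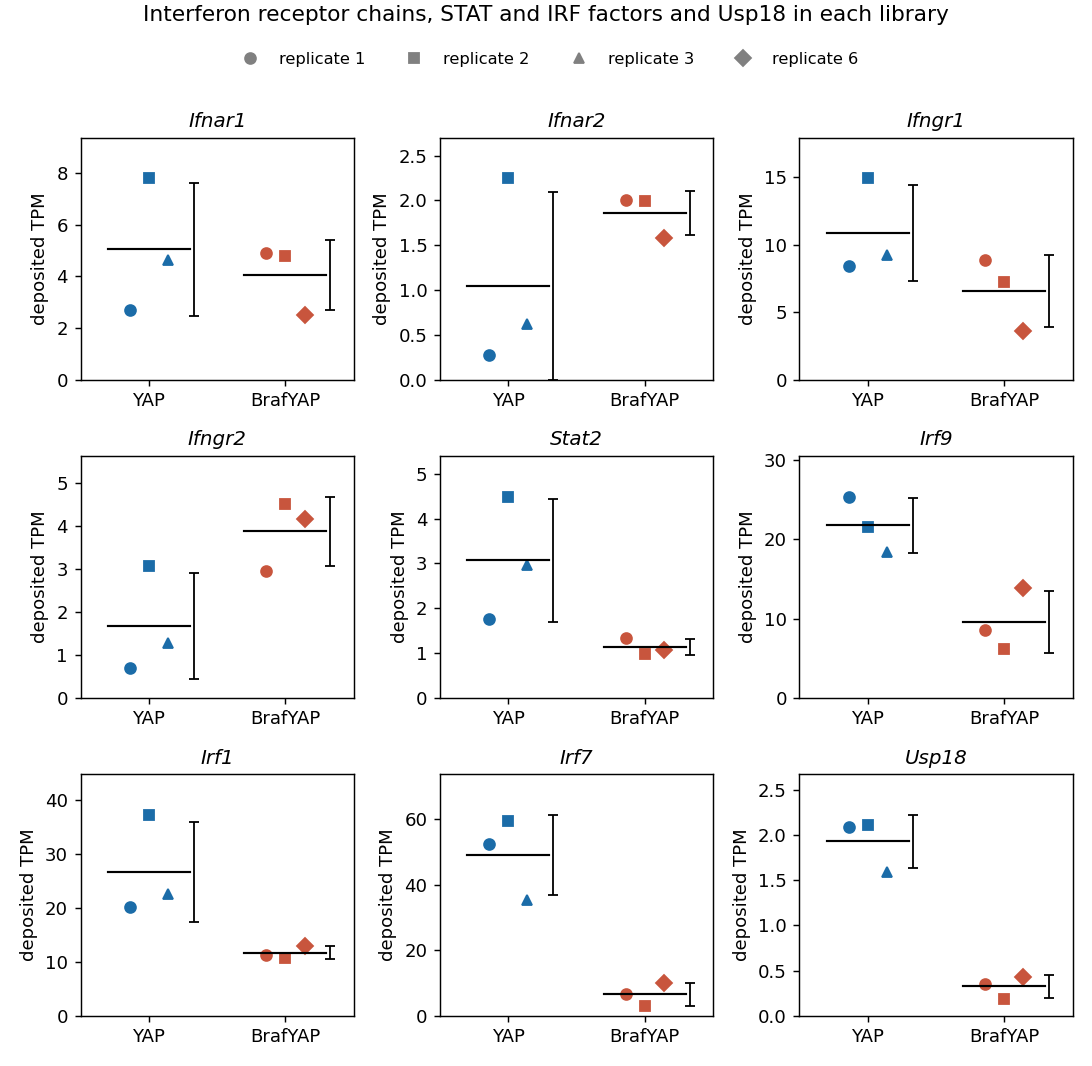
Deposited TPM of the 9 genes in each library, with points shaped by replicate number, a horizontal line at the group mean and an error bar of 1 SD (n = 3 libraries per genotype, axes from 0). Stat2, Irf9, Irf1, Irf7 and Usp18 show no overlap of YAP and BrafYAP libraries, whereas each of the 4 receptor chains does.

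Markers of myeloid cells also had lower values in BrafYAP libraries. All but 2 of the 13 genes on that list (S100a8 and Flt3) had a lower mean, and no gene of the list was at 0 in all libraries. Of the 13 genes 10 were tested, and 8 had an unadjusted p under 0.05 with BrafYAP lower (9.17% of all genes). Summed without Lyz2, the list was 4.32-fold lower in BrafYAP by its means. C1qa, a complement gene of macrophages, had a mean of 2144 TPM by exonic length in YAP and 285.3 in BrafYAP, and Csf1r, the macrophage growth factor receptor, had 396.6 and 100.5. Ptprc, carried by all leukocytes, ranged from 8.28 to 11.9 in YAP and from 2.04 to 4.23 in BrafYAP. The whole list of pan-leukocyte and lymphocyte markers (12 genes) overlapped, with a sum of 15.1 to 26.8 in YAP. In BrafYAP it was 7.16, 2.85 and 24.7, so replicate 6 lay inside the YAP range. The part of these cells in the lower values of Stat2, Irf1, Irf7, Irf9 and Usp18 was not tested.

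Undoing the length division gave the same directions. On scaled reads the log2 fold changes of Stat2, Irf1, Irf7 and Irf9 were -1.35, -1.15, -3.04 and -1.26, and those of Ifnar1, Ifngr1 and Ifngr2 were -0.24, -0.77 and 1.45. Among 16832 genes tested on that scale, 10.5% had an unadjusted p under 0.05 with BrafYAP lower and 9.68% with BrafYAP higher, and the same 5 members and 1 member did. By limma 0 genes (0%) passed the adjusted threshold there, and 3404 had an unadjusted p under 0.05.

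**Figure D3:**
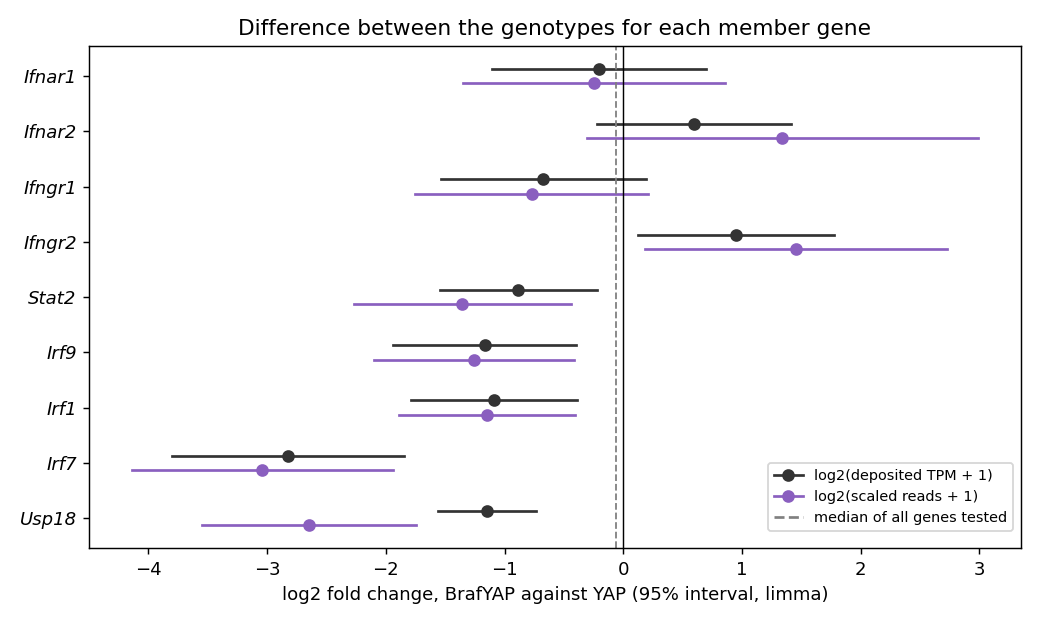
Log2 fold change of each gene, BrafYAP against YAP, with its 95% limma interval, on log2(deposited TPM + 1) in black and on log2(scaled reads + 1) in purple. The intervals of Stat2, Irf9, Irf1, Irf7 and Usp18 lie below 0 and that of Ifngr2 above 0 on both scales, before adjustment, and the dashed line is the median of all genes tested (-0.06).

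Levels of different genes were compared only per exonic length. That length counts every annotated exon base. It was 3776 of 3776 spanned bases for Irf7 and 5386 of 6460 for Irf9, but 2847 of 18281 for Ifngr1. The order and ranks hold for these lengths only, and another choice of transcripts could change them. In YAP cells Ifngr1 was the most abundant member, at a mean of 180.5 ± 52.5 TPM by exonic length (SD, n = 3). Irf1 (145.1 ± 45.4) and Irf7 (127.1 ± 27.1) came next, and neither differed from its neighbour in this order beyond the larger SD. Irf9 (68.1 ± 9.69) stood below Irf7 by more than the larger SD, and it did not differ beyond the spread from Ifnar1 (48.8 ± 23.6), nor Ifnar1 from Usp18 (45.02 ± 5.22). Stat2 (30.01 ± 12.7) lay below Usp18 by more than the larger SD, and Stat2, Ifnar2 (26.4 ± 25.6) and Ifngr2 (21.3 ± 15.0) did not differ beyond their spread.

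The order was another one in BrafYAP cells. Ifngr1 (114.3 ± 46.9 TPM by exonic length) and Irf1 (65.9 ± 6.04) kept the first places. Ifngr2 (51.7 ± 11.3), ninth in YAP cells, was the third, and Ifnar2 (49.5 ± 6.97) and Ifnar1 (41.1 ± 14.1) followed without differing beyond the spread. Irf9 (30.9 ± 12.4) did not differ beyond the spread from Ifnar1. Irf7 (17.5 ± 9.05) went from rank 3 in YAP to rank 7, next to Stat2 (11.5 ± 1.70) within the spread, and Usp18 (7.79 ± 2.92) from rank 6 to the last place.

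**Figure D4:**
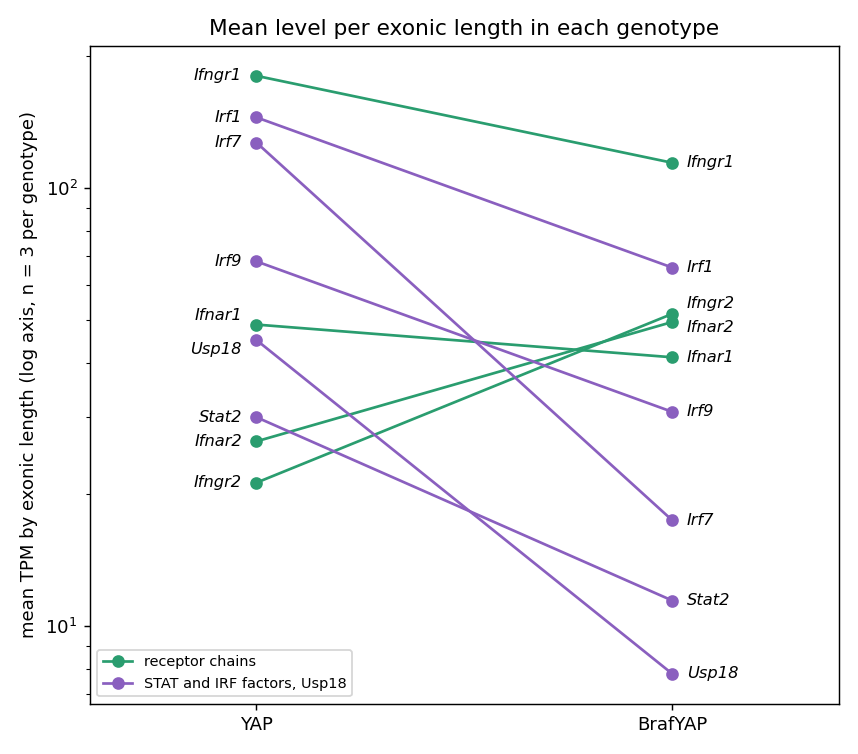
Mean level per exonic length of the 9 genes in YAP and BrafYAP cells (log axis, n = 3 libraries per genotype, no error shown), with receptor chains in green and the other genes in purple. The purple lines all go down, Irf7 from 127.1 to 17.5 and Usp18 from 45.02 to 7.79, and all but that of Irf1 cross the upward green lines of Ifngr2 and Ifnar2.

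Interferon ligands were near the limit of detection in the sorted cells. Of 20 ligand genes on the list, 11 were in the table, 7 of these were at the offset in every library and 0 reached the minimum for the test. Ifng, encoding interferon-gamma, had an estimated 3 reads in YAP replicate 1, 2 in YAP replicate 2 and 0 in the others. Ifnb1, encoding interferon-beta, had 10, 1 and 0 reads in YAP and 0, 0 and 31 in BrafYAP. A count of 0 allows up to 3 reads, for counting error only. The 31 reads of Ifnb1 in BrafYAP replicate 6 lay above that limit, in 1 library of 3, and no ligand gene was tested.

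Kinases and further STATs did not share one direction. Of 11 genes on the list (JAK kinases, further STATs and lambda receptor chains) 7 were tested, with a median log2 fold change of 0.21. Stat6, the interleukin-4 factor, singled out after its values were seen, had 17.6, 14.7 and 12.5 TPM in YAP and 8.59, 8.88 and 9.25 in BrafYAP (log2 fold change -0.67, unadjusted p = 0.0223, limma adjusted p = 0.174). Stat3, which mediates interleukin-6 signals, had 1.71, 8.29 and 3.20 TPM in YAP and 7.06, 5.38 and 5.34 in BrafYAP, with a log2 fold change of 0.54 (limma adjusted p = 0.519). Jak1, the kinase used by both receptor types, had a log2 fold change of 0.55 (limma adjusted p = 0.261) and Tyk2, a kinase of the type I receptor, one of -0.17 (limma adjusted p = 0.785). Jak2, a kinase of the interferon-gamma receptor, was below the minimum and had -0.66 on scaled reads (limma adjusted p = 0.484).

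Further IRF genes and IRF2-binding proteins also differed among themselves. Of 9 on the list, 3 of them binding proteins (Irf2bp1, Irf2bp2 and Irf2bpl), 7 were tested, with a median log2 fold change of 0.24. The highest values were those of binding proteins, which are corepressors and not IRFs. Irf2bp1 had 0.637, 2.29 and 1.73 TPM in YAP and 5.90, 5.71 and 7.75 in BrafYAP (log2 fold change 1.60, unadjusted p = 0.00119, limma adjusted p = 0.0826). Irf2bpl had 2.33, 20.7 and 6.98 TPM in YAP and 42.5, 55.4 and 37.7 in BrafYAP (log2 fold change 2.45, unadjusted p = 0.00625, limma adjusted p = 0.11). Both were higher in every BrafYAP library and were named after their values were seen. Irf3, the constitutive factor activated by nucleic acid sensing, had 8.56, 20.0 and 21.1 TPM in YAP and 12.1, 11.3 and 16.1 in BrafYAP (log2 fold change -0.23, limma adjusted p = 0.76). Irf5, a factor of macrophages and B cells, had 5.51, 15.2 and 5.51 TPM in YAP and 4.99, 2.47 and 1.96 in BrafYAP (log2 fold change -1.16, unadjusted p = 0.0355, limma adjusted p = 0.215). Irf5 was thus lower in every BrafYAP library, whereas Irf8, another factor of myeloid cells, ranged from 0.901 to 12.1 TPM in YAP and from 2.53 to 5.54 in BrafYAP (limma adjusted p = 0.873). Irf2, which competes with Irf1 for its sites, was below the minimum and had a log2 fold change of -1.13 on scaled reads (limma adjusted p = 0.138).

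Negative regulators other than Usp18 went either way. Of 10 on the list 5 were tested, with a median log2 fold change of 0.50. Socs3, a feedback inhibitor of cytokine receptors that use Stat3, had 6.98, 45.6 and 9.42 TPM in YAP and 58.3, 94.2 and 92.0 in BrafYAP. All BrafYAP libraries were above all YAP libraries, and the log2 fold change was 2.36 (SE 0.66, unadjusted p = 0.00878, limma adjusted p = 0.126). Ptpn6, a phosphatase abundant in blood cells, named after its values were seen, had 17.5, 18.0 and 9.20 TPM in YAP and 6.69, 3.98 and 2.70 in BrafYAP, without overlap (log2 fold change -1.56, unadjusted p = 0.00438, limma adjusted p = 0.102). Socs1, the inhibitor of JAK kinases in the interferon-gamma response, had 29 to 44 estimated reads in YAP and 31 to 108 in BrafYAP, with a log2 fold change of 0.77 on scaled reads (limma adjusted p = 0.47). Ptpn2, a phosphatase of STATs, had 0.20 on that scale (limma adjusted p = 0.868). Of 14 nucleic acid sensors and adaptors 8 were tested, with a median log2 fold change of -0.76 over the 8. Of these, 4 (Ddx58, Tmem173, Ikbke and Zbp1) were lower at an unadjusted p under 0.05, against 9.17% of all genes tested. Ddx58, Ikbke and Zbp1 reached the minimum through their YAP libraries alone, with BrafYAP means of 0.668, 0.906 and 0.241 TPM. On scaled reads 13 of the list were tested and 5 were lower at that p, against 10.5% of all genes (median -0.96, all genes -0.12).

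Target genes of both interferon types were lower as a group. The antiviral list held 36 genes induced mainly by type I interferon. Of its 23 tested genes 22 had an unadjusted p under 0.05 with BrafYAP lower, against 9.17% of all genes tested. The median log2 fold change was -1.45. A gene could reach the minimum through its YAP libraries alone, so the count was repeated on scaled reads. There all 36 were tested and 33 were lower at that p, against 10.5% of all genes (median -2.25, all genes -0.12). Isg15, Oasl1, Rsad2 and Bst2 passed the adjusted threshold of limma on log2(TPM + 1), and on scaled reads none of them did (adjusted p from 0.0517 to 0.0589). Isg15, the ubiquitin-like protein that Usp18 removes, fell from 93.8, 56.6 and 56.0 TPM in YAP to 6.43, 5.02 and 10.2 in BrafYAP (log2 fold change -3.09, limma adjusted p = 0.0468). Ifit3 and Ifi27l2a came next on that scale (-2.90 and -2.09, limma adjusted p = 0.0826 and 0.174). The order was another one on scaled reads, where Oas2, Oasl1 and Rsad2 had -5.77, -3.50 and -3.48, Isg15 -3.27 and Ifi27l2a -2.68. The value of Oas2 rests on 2, 0 and 5 estimated reads in BrafYAP, near the limit of 3 for a count of 0. On TPM by exonic length it was -1.84. BrafYAP replicate 6 stood apart in some targets. It had 11.8 TPM of Ifi27l2a, inside the YAP range, against 1.26 and 0.792 in the other BrafYAP libraries. At the other end of the list stood Trim25, Isg20 and Trim21 (-0.25, -0.71 and -0.95), and no tested gene of the list had a positive value.

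The interferon-gamma list held 26 genes, of which 19 were tested, with a median log2 fold change of -1.97. Of the 19, 15 had an unadjusted p under 0.05 with BrafYAP lower (9.17% of all genes tested). On scaled reads 25 were tested and 21 were lower at that p (10.5% of all genes), with a median of -3.05. Cxcl10 and Cxcl11, chemokines that attract T cells, passed the adjusted threshold of limma on log2(TPM + 1) but not on scaled reads (adjusted p = 0.0517 and 0.097). Cxcl10 fell from 172.4, 66.4 and 84.9 TPM in YAP to 3.80, 4.12 and 8.36 in BrafYAP (log2 fold change -4.03, limma adjusted p = 0.0468). The GTPases Igtp and Tgtp2 had log2 fold changes of -3.54 and -3.53 (limma adjusted p = 0.0511 and 0.0897). Wars, Tapbp and Tap1 were closest to 0, at -0.29, -0.47 and -0.81. YAP replicate 2 held the most Tap1 and Tapbp (34.2 and 107 TPM), as it did of every member but Ifngr2 and Irf9. BrafYAP replicate 6 again stood apart in Iigp1, an interferon-induced GTPase named after its values were seen, with 16.5 TPM against 0.301 and 0.239 in the other BrafYAP libraries. Myeloid markers were lower beside both target lists too (8 of 10 tested at an unadjusted p under 0.05, and 4.32-fold lower in sum without Lyz2), and their part in the target values was not tested.

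**Figure D5:**
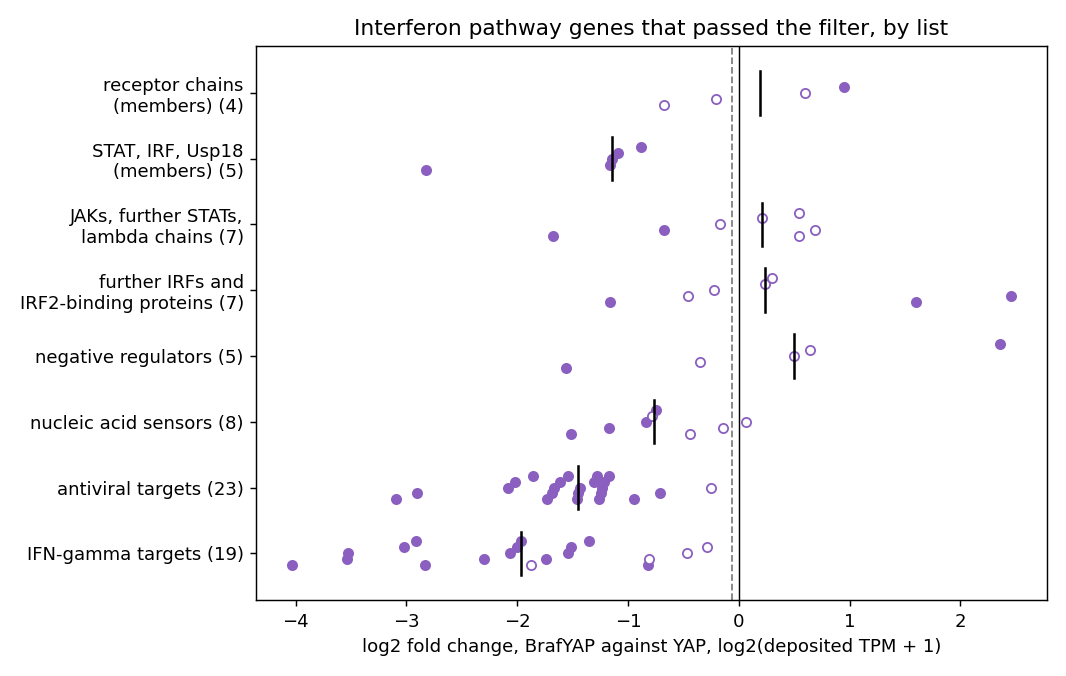
Log2 fold changes (BrafYAP against YAP, log2(deposited TPM + 1)) of the genes of each interferon list that passed the minimum, with the number of genes in brackets. Filled points have an unadjusted p under 0.05, black bars are list medians and the dashed line is the median of all genes tested. The medians of the member factors (-1.15), antiviral targets (-1.45) and interferon-gamma targets (-1.97) lie to its left. That of the receptor chains (0.19) lies to its right. The bar of the member factors is the value of Usp18, which reached the minimum through its YAP libraries alone.

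Genes with the most similar profiles were listed by Pearson r of log2(TPM + 1) over the 6 libraries, as a description. These libraries fall into 2 genotypes, so a high r can arise from the group difference alone. For Irf7 the closest were Cyb561d2 (r = 0.997), Tapbpl (0.994), Ifit3 (0.986) and Parp10 (0.985). For Irf1 they were Susd2 (0.979), Ighm (0.972) and Cxcl11 (0.964). For Ifngr1 they were Ppt2 (0.991), Matk (0.986), Eftud2 (0.984) and Zmynd15 (0.981). Ifit3 and Cxcl11 are on the target lists above, whereas none of the 4 genes closest to Ifngr1 is.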

How the data were processed

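The authors aligned paired 50-nt reads to mm10 with STAR 2.6.1d, quantified Ensembl release 95 genes with Partek and deposited TPM with 0.0001 added. Low values were whole multiples of 1 read (tolerance 0.05) for 71.7 to 76.1% of genes when multiplied by genomic span and for 22.3 to 25.1% with exonic length, so the deposited TPM had been divided by span. Spans and exonic lengths were those of GENCODE M21 (34709 symbols found, 34640 at 1 locus, coordinates from 1). Scaled reads undo that division alone. TPM by exonic length replaces it.

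Genotypes (3 libraries each, grouped by title) were compared in limma 3.58.1 under R 4.3.3, two-sided, with eBayes, a trend and no covariates. The fit used log2(TPM + 1) of the 7319 genes whose mean reached 1. A further fit used log2(scaled reads + 1) of the 16832 genes whose mean reached 10. P-values were adjusted by Benjamini-Hochberg, and genes under 0.05 were called. The fit was tested on simulated data. Named were the 9 members, 14 set pathway genes, the 3 highest and 3 lowest fold changes of each target list, and the 4 most similar genes of Irf7, Irf1 and Ifngr1 (unnamed predicted genes were passed over). Genes that this rule selects but the text does not name are not reported here. Other genes were named after their values were seen. Members and lists were chosen with earlier results of these data known. The labels give no batch. Reads carry no molecular identifiers, so floors cover counting error only.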

Additional observations from a re-analysis of the deposited data

How the results depend on the processing

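The count of 18 genes past the threshold depended on nearly every choice. It was 1 with a pseudocount of 0.1, 3 with a minimum mean of 10, 0 without a filter (3891 unadjusted), 79 with quantile normalization, 1 with median-ratio scaling, 1 without a trend, 1393 with array weights estimated gene by gene, 0 with the length division undone and 63 with the exonic length. Leaving out 1 library gave 0 to 465 genes, with 465 without YAP replicate 2 (404 higher and 61 lower, against 6 and 12) and 20 without BrafYAP replicate 6. The number of members past the threshold was 0, and it became 1 with quantile normalization (Irf7), 1 with the exonic length (Usp18) and 7 with array weights (Ifnar2 and Ifngr2 higher, Stat2, Irf1, Irf7, Irf9 and Usp18 lower). It was 0 to 2 without 1 library, with 2 (Irf7 and Ifngr2) without YAP replicate 2 and 1 (Irf7) without BrafYAP replicate 6. The cause was not tested. Array weights gave YAP replicate 3 a weight of 3.03 and BrafYAP replicate 6 one of 0.299. Their estimation gene by gene and the leave-one-out fits on scaled reads were chosen after seeing the data.

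The replicate numbers 1 and 2 occur in both genotypes. With a replicate block 0 genes and 0 members passed (987 genes and 4 members unadjusted), and the median of the members was -0.86. Deviations of same-numbered libraries from their group means had correlations of -0.05 and 0.06. Each value comes from a single pair of libraries, so it cannot decide whether they share more than a number.

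The log2 fold change of Ifnar1 changed sign, from -0.21 to 0.04 (0.0399) with the replicate block. Leaving out 1 library gave -0.52 to 0.11, above 0 without YAP replicate 2 (0.11) and without BrafYAP replicate 6 (0.04). Without the same libraries on scaled reads it was 0.14 and 0.077. The other 8 members kept their sign under every alternative that gave a value. The median over the members ranged from -1.17 (minimum mean of 10, 3 members tested) to -0.54 (without YAP replicate 2). Usp18 fell under the minimum without YAP replicate 1 or 2. The median of all genes moved from -0.06 to -0.11 with quantile normalization and to 0.04 with median-ratio scaling. Depth limits the ligands (0 to 31 reads), whereas Irf1 and Irf7 had 443 to 7667 estimated reads per library.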
